A study of Homo sapiens with 18 samples.

Results

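The 33 genes described here are the glucose transporter SLC2A1, the enzymes that carry glucose to lactate, and targets of the hypoxia-inducible factors (HIF) such as BNIP3, ADM and VEGFA. Their rows were found in the deposited expression tables by gene name. All 33 were listed among the 14308 genes of the MDA-MB-231 table, and 31 among the 14768 genes of the T47D table, which did not list CA9 and NDRG1. RNA was sequenced in these 2 human breast cancer cell lines, T47D being positive and MDA-MB-231 negative for the estrogen receptor. Each line carried a G0S2 gene that doxycycline switches on, and the 6 groups, of 3 libraries each, are cells kept without the drug (day 0, control) or given 0.5 ug/ml of it until day 3 or day 15. The series description speaks instead of parental and Aza-resistant lines in biological triplicate, whereas the groups used here are those of the sample labels. Doxycycline-treated cells lacking the introduced gene were not analysed here. All controls are labelled day 0, and no group was kept untreated until day 3 or day 15. An effect of the drug, the vector or time in culture therefore cannot be told apart from one of G0S2. Sample labels name no separate cultures behind the libraries, so each p-value reflects library-to-library spread, which may be technical.

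HIF is a pair of proteins, an oxygen-regulated alpha subunit (HIF1A or EPAS1) and the stable partner ARNT. With oxygen present, prolyl hydroxylases of the EGLN family mark the alpha subunit for destruction. When oxygen falls the alpha subunit accumulates, binds short DNA cores near its targets and raises glucose uptake, glycolysis, the block on pyruvate entry into mitochondria (PDK1), removal of mitochondria (BNIP3, BNIP3L), blood vessel signals (VEGFA, ADM) and its own hydroxylases. Many tumour cells express the glycolytic genes strongly with oxygen present. G0S2 is known as an inhibitor of adipose triglyceride lipase, the enzyme that starts the breakdown of stored fat.

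G0S2 itself followed the labels. Its level in CPM (reads per gene scaled to a common library total) was 25.0 to 25.5 in MDA-MB-231 controls, 1429 to 1506 at day 3 and 1103 to 1294 at day 15, and in T47D it was 0.277 to 0.8998 in controls, 844 to 883 at day 3 and 736 to 993 at day 15. Reads in listed genes numbered 37.0 to 52.4 M per MDA-MB-231 library and 40.1 to 51.0 M per T47D library. The T47D library of day 15 replicate 2 stood apart: the chi-square per degree of freedom between it and its partners was 14.5 and 23.6, against 1.74 to 5.92 for every other pair within a group. Identity markers followed the line labels, since the 10 T47D markers summed to 10638 to 11321 CPM in T47D and 887 to 1038 CPM in MDA-MB-231, where 7 of them were listed, and the 9 MDA-MB-231 markers to 7640 to 8054 CPM in MDA-MB-231 and 6.63 to 11.8 CPM in T47D, where 1 was listed.

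DNA near the start of 7 of these genes is shown because HIF acts through short core letters there, a feature that expression values do not enter. The letters ACGTG and GCGTG were searched on both strands, that is also as CACGT and CACGC, in RefSeq windows (build GRCh38.p14) from 250 bases before to 50 after each gene start. ACGTG and CACGT overlap where the letters read CACGTG, and are then counted as 2 matches. Of the 33 members, 30 had a window, in all 53 windows, and 36 of these (67.9%) held a core, beside 59.0% of the 17277 windows of genes that either table lists and 48.4% of all 35116 windows. By gene, 27 of 30 members (90.0%) held a core in at least 1 window, beside 68.1% of the 11964 genes with a window that either table lists. The shares by gene are not matched for windows per gene: a gene with more windows has more chances to hold a core, and HK1 and PFKM had 7 each. A match is a description of letters, not a binding site.

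In the sequences that follow, written 5′ to 3′ on the gene's own strand, capitals mark the cores. BNIP3, PGK1 and EGLN3 are shown from 250 bases before the gene start up to the first base in the window that any GENCODE 29 exon covers. The GENCODE gene bounds of PGK1 and EGLN3 reach further upstream than these RefSeq starts. The stretches shown for BNIP3, PGK1 and EGLN3 carry 6, 3 and 0 matches. Each of these genes was called lower in T47D at day 15, and EGLN3 fell most among the members called there. HK2 and LDHA, with up to 6 matches in a window, were not called in any comparison, whereas P4HA2, with 0, was called. A link between matches and response was not tested.
BNIP3, chr10:131982014-131982173, minus strand: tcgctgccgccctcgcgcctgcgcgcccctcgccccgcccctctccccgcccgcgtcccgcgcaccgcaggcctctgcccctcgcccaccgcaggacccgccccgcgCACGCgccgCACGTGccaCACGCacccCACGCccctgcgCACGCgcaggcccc
PGK1, chrX:78103998-78104173, plus strand: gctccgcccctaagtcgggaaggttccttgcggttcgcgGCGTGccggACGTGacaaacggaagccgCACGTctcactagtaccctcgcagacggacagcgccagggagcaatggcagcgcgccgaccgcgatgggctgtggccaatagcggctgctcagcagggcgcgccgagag
EGLN3, chr14:33951082-33951324, minus strand: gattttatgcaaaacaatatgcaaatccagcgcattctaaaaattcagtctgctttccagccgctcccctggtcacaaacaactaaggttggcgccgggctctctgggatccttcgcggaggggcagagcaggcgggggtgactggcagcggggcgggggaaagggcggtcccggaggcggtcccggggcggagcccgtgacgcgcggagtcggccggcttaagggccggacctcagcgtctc
For ADM, ENO2, P4HA1 and GPI, each called in at least 1 comparison, 30 bases around the only match are shown. These stretches lie inside the GENCODE 29 bounds of their genes, so they are not upstream of every annotated start.
ADM, chr11:10304960-10304989, plus strand: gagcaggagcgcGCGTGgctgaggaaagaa
ENO2, chr12:6914450-6914479, plus strand: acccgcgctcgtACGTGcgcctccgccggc
P4HA1, chr10:73096935-73096964, minus strand: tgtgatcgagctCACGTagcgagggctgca
GPI, chr19:34364818-34364847, plus strand: acactgcctgtaACGTGgaaggtgttcgat
The whole windows of EGLN3, PGAM1 and P4HA2 held no match, and those of HK2, LDHA and BNIP3 held the most, 6 in 1 window. BNIP3L, NDRG1 and VEGFA were not matched to a window.

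Before induction, the lines differed in which isozymes they used. To compare genes, control CPM was divided by the length of the gene's merged exons in GENCODE 29. ENO1 (1302 ± 33.5 CPM per kb, SD, n = 3) and GAPDH (1298 ± 50.8) led in MDA-MB-231 and did not differ beyond their spread, followed by PKM (865 ± 7.66) and LDHA (853 ± 11.8), whose ranges lay close together. The same 4 genes led in T47D, in the order ENO1 (680.0 ± 13.8 CPM per kb), GAPDH (454 ± 20.0), PKM (402 ± 8.99) and LDHA (235 ± 3.02). LDHB, the lactate dehydrogenase subunit typical of lactate-using tissues, followed in MDA-MB-231 at 416 ± 2.94 CPM per kb and was among the lowest in T47D at 2.06 ± 0.159. PFKFB3, which makes the activator of phosphofructokinase, stood at 104.6 ± 1.83 CPM per kb in T47D and at 11.6 ± 0.209 in MDA-MB-231.

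**Figure D1:**
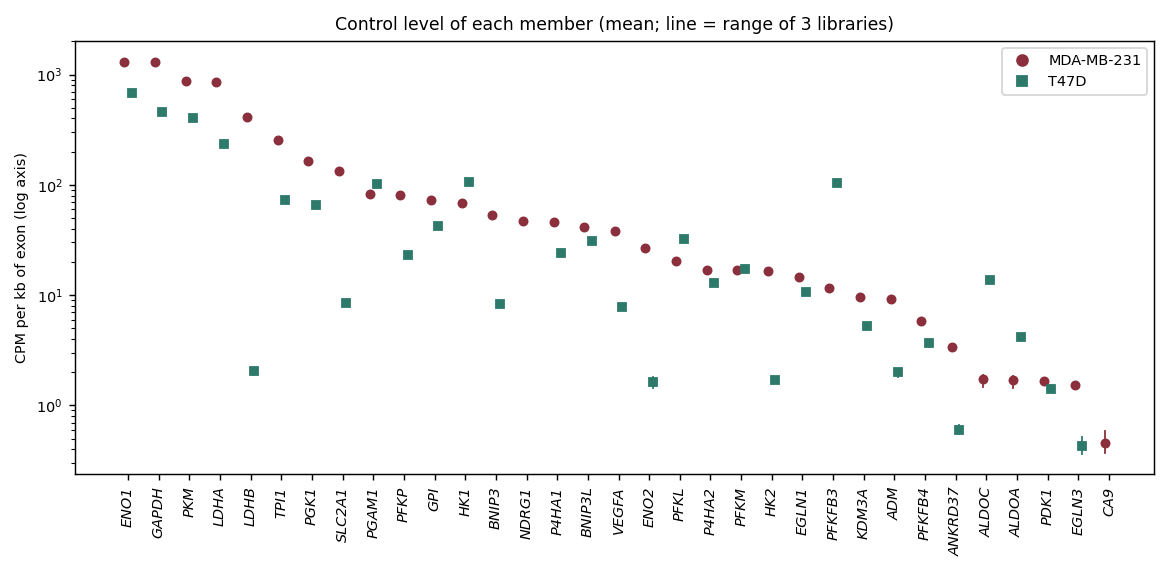
Control level of each member in CPM per kb of exon (vertical, log axis), ordered by the MDA-MB-231 mean; circles are MDA-MB-231, squares T47D, and thin lines the range of 3 libraries. ENO1, GAPDH, PKM and LDHA head both lines, and LDHB, SLC2A1, HK2, ENO2, PFKFB3 and ALDOC lie far apart between them.

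Set side by side as control CPM, LDHB had 659 in MDA-MB-231 and 3.26 in T47D, SLC2A1 had 530.1 and 33.8, HK2 (the inducible hexokinase) 99.1 and 10.1, and ENO2 (neuron-specific enolase) 84.1 and 5.19. PFKFB3 had 63.4 in MDA-MB-231 and 569 in T47D, and ALDOC (brain-type aldolase) 3.52 and 27.7. The ratios were 202 for LDHB, 15.7 for SLC2A1, 9.82 for HK2 and 16.2 for ENO2 in favour of MDA-MB-231, and 8.98 for PFKFB3 and 7.89 for ALDOC in favour of T47D. The tables were scaled separately, so these levels were not tested against each other. ALDOA, usually an abundant enzyme, was counted at only 3.13 to 10.5 CPM and shares its exons with another annotated RefSeq gene, so its values are uncertain, as are those of GAPDH, PGK1, TPI1, PGAM1, LDHA, LDHB and ENO1, whose families include near-identical pseudogenes.

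Most members were not called in any 1 comparison. A gene was called where limma's adjusted p, over all genes of the table, was under 0.05. In MDA-MB-231 at day 3, 5 of 33 members rose (0.895% of all genes were called higher) and 1 fell (0.874% of all genes were called lower). The risers were BNIP3 and BNIP3L, the mitophagy receptors, ENO2, VEGFA, the vessel growth factor, and P4HA1, a collagen prolyl hydroxylase, and ADM, the vasodilator peptide adrenomedullin, fell. The median log2 fold of the 33 was 0.04, beside 0.00 over all genes, and 24 of them were above 0. At an unadjusted p under 0.05 stood 14 members. BNIP3 and ENO2 kept their calls without any 1 of the 6 libraries, whereas ADM (adjusted p 0.067 to 0.17) and VEGFA (0.072 to 0.19) lost theirs in every omission, P4HA1 in all but that of control replicate 3 (up to 0.20), and BNIP3L without control replicate 2 (0.080) or day 3 replicate 2 (0.12). With neither trend nor robust moderation of the variance, none of the 6 was called, and over all genes 31 were called higher and 32 lower.

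By day 15 in MDA-MB-231, 1 of 33 members, LDHB, was higher than control (3.42% of all genes were called higher) and 1, GPI, was lower (4.77% of all genes were called lower). The median member fold was -0.02 on the log2 scale, beside 0.00 over all genes. Against day 3, day 15 had 0 members higher (2.47% of all genes) and 5 lower (2.86% of all genes): NDRG1, a stress-response gene, BNIP3, PGK1, CA9, the cell-surface carbonic anhydrase, and P4HA2. At an unadjusted p under 0.05 stood 14 members in that comparison, limma-voom on recovered reads called 0 higher, and median centring called 1 higher. The share of higher calls over all genes depended on scaling: 490 genes were higher and 683 lower at day 15 against control, but 658 and 502 after median centring, and against day 3 the split moved from 354 and 409 to 555 and 271 with median centring and to 234 and 412 with limma-voom.

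In T47D at day 3, 0 of 31 members were called higher (1.16% of all genes) and 0 lower (0.718% of all genes), with 4 members at an unadjusted p under 0.05. limma-voom on recovered reads also called 0 in either direction. A limma fit of control and day 3 alone called 4 members lower. Over all genes it called 389 higher and 532 lower, beside 171 and 106 in the fit of all 9 libraries. The latter shares its spread with day 15 replicate 2, the library that stood apart, and was not rerun for this comparison without it. The 0 calls therefore do not show that the members did not respond. The median log2 fold of the 31 was -0.04, beside 0.00 over all genes.

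At day 15 in T47D, 1 of 31 members, BNIP3L, rose against control (5.0% of all genes were called higher) and 6 fell (6.23% of all genes were called lower). The 6 were GPI, the enzyme after hexokinase, PFKM, a phosphofructokinase, PGK1, EGLN3, the hydroxylase that HIF itself induces, BNIP3 and ADM. The median member fold was -0.05 on the log2 scale, beside 0.00 over all genes. Against day 3, BNIP3L was the 1 member higher (2.23% of all genes were called higher), and GPI, PFKM, ADM and EGLN3 were the 4 lower (3.35% of all genes were called lower). The control libraries enter both comparisons with control in each line, and the day 3 and day 15 libraries each enter 2 comparisons, so these counts are not independent of each other.

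**Figure D2:**
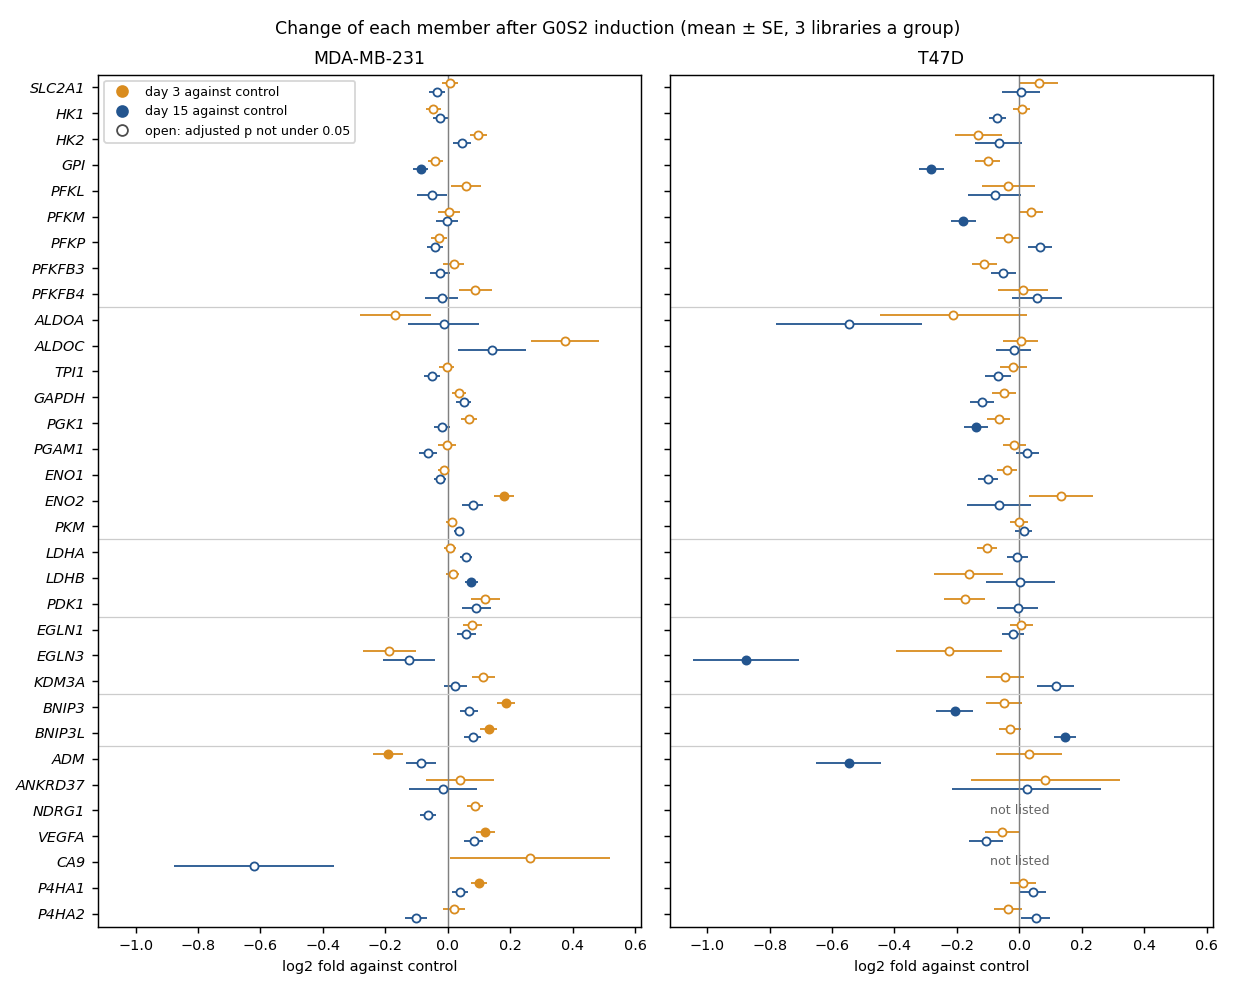
Log2 fold of each member against control (horizontal, mean ± SE from limma) at day 3 (orange) and day 15 (blue) in MDA-MB-231 (left) and T47D (right), grouped by role; filled points have an adjusted p under 0.05. In MDA-MB-231 5 members lie filled above 0 at day 3, and in T47D 6 lie filled below 0 at day 15.

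The mitophagy receptors were called in both lines. In these bulk samples, fewer cells expressing a gene and less RNA per cell cannot be told apart. BNIP3, on chromosome 10 (131966455 to 131982013, minus strand, GRCh38), had 151, 153 and 155 CPM in MDA-MB-231 controls, 176, 177 and 169.8 at day 3, and 164, 164 and 153 at day 15. Every day 3 library lay above every control, and day 15 overlapped with control. The day 3 rise was 1.14-fold (log2 0.19, SE 0.03, limma adjusted p = 0.0002, n = 3), and from day 3 to day 15 the level fell by 0.12 on the log2 scale (SE 0.03, adjusted p = 0.018). In T47D, BNIP3 had 24.6, 23.0 and 23.5 CPM in controls, 22.7, 23.4 and 22.6 at day 3, and 20.9, 19.0 and 21.8 at day 15. All 3 day 15 libraries lay below all controls, and the log2 fold was -0.21 (SE 0.06, adjusted p = 0.034). That call was lost without control replicate 1 (0.14), 2 (0.072) or 3 (0.084) or day 15 replicate 1 (0.079), and the MDA-MB-231 fall from day 3 to day 15 was lost without day 15 replicate 3 (0.10) or day 3 replicate 1 (0.11) or 2 (0.12). BNIP3 overlaps the annotated gene PPP2R2D, and the use of strand in counting is not given in the sources used here.

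BNIP3L, the close relative of BNIP3, had 161, 159.8 and 164 CPM in MDA-MB-231 controls, 171, 183 and 178 at day 3, and 171, 170.0 and 172 at day 15. Both induced groups lay above the controls, with a log2 fold of 0.13 (SE 0.03, limma adjusted p = 0.0067) at day 3. At day 15 it was 0.08 (SE 0.03, adjusted p = 0.064), which was not called. T47D had 122, 121 and 118 CPM in controls, 118, 119 and 117 at day 3, and 133, 128 and 139 at day 15. Only the day 15 libraries stood above the rest, by 0.15 against control (SE 0.04, adjusted p = 0.015) and by 0.18 against day 3 (SE 0.04, adjusted p = 0.0079) on the log2 scale. The first of these T47D calls was lost without control replicate 2 (0.064) or 3 (0.068) or day 15 replicate 1 (0.057), and the second held in all 6 omissions. The within-library log2 ratio of BNIP3L to BNIP3 was 2.31 to 2.39 in T47D controls and 2.67 to 2.75 at day 15, a difference of 0.35 with no overlap. The exact two-sided permutation p was 0.1, the smallest 3 against 3 allows, and 0.25 after adjustment over 40 ratio comparisons. Of those 40, 16 had groups that did not overlap. In MDA-MB-231 that ratio differed by -0.05 at day 3, with the groups overlapping.

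The response of BNIP3 differed between the lines when tested as such, in a limma fit over the 12666 genes of both tables and all 18 libraries. The T47D minus MDA-MB-231 difference of the day 3 responses was called lower for 2 of 31 members, BNIP3 and BNIP3L (1.05% of all genes), and higher for 0 (1.41% of all genes), with 11 members at an unadjusted p under 0.05. BNIP3 differed between the lines by -0.24 on the log2 scale (SE 0.06, adjusted p = 0.038), and BNIP3L by -0.16 (SE 0.04, adjusted p = 0.044). Of 12 omissions of single libraries, BNIP3 kept its call in 1, without T47D control replicate 2, and BNIP3L in 2, without MDA-MB-231 day 3 replicate 1 or T47D control replicate 3, with adjusted p up to 0.13 and 0.15 in the others. For the day 15 responses, 6 members were called lower (5.37% of all genes) and 0 higher (4.07% of all genes): GPI, PFKM, GAPDH, BNIP3, ADM and EGLN3. BNIP3 differed at day 15 by -0.28 on the log2 scale (SE 0.06, adjusted p = 0.0049), and this call held in all 12 omissions, with adjusted p up to 0.019.

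Among the genes of glucose entry and upper glycolysis, 0 of 9 were called in either line at day 3, GPI was called lower in MDA-MB-231 at day 15, and GPI and PFKM were called lower in T47D at day 15. GPI, glucose-6-phosphate isomerase on chromosome 19 (34359480 to 34402413, plus strand), had 188, 189 and 195 CPM in T47D controls, 178, 176 and 178 at day 3, and 152, 168 and 150.4 at day 15. The 3 groups formed 3 separate levels, with control highest and day 15 lowest. The day 15 log2 fold was -0.28 (SE 0.04, limma adjusted p = 0.0003), a level 0.823 times control, and it held in all 6 omissions. The day 3 value was -0.10 (SE 0.04) and was not called. In MDA-MB-231, GPI had 331, 333 and 319.9 CPM in controls, 324, 321 and 313 at day 3, and 313, 309 and 305 at day 15. The day 15 libraries again lay below all controls, by a log2 fold of -0.09 (SE 0.02, adjusted p = 0.025), a call lost without control replicate 1 (0.11) or 2 (0.16) or day 15 replicate 3 (0.070). The T47D response at day 15 was larger by -0.20 on the log2 scale (SE 0.05, adjusted p = 0.0087), and this difference held in all 12 omissions. The T47D fall of GPI from day 3 to day 15, -0.18 (SE 0.04, adjusted p = 0.015), was lost without day 15 replicate 1 (0.086) or day 3 replicate 1 (0.082), 2 (0.064) or 3 (0.074).

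PFKM, the muscle-type phosphofructokinase, had 80.0, 82.7 and 85.4 CPM in T47D controls, 87.6, 82.3 and 84.7 at day 3, and 73.7, 74.4 and 70.9 at day 15. Control and day 3 overlapped, and all day 15 libraries lay below both. The day 15 log2 fold was -0.18 against control (SE 0.04, limma adjusted p = 0.0092) and -0.22 against day 3 (SE 0.04, adjusted p = 0.0043), and both held in all 6 omissions. In MDA-MB-231 the 9 libraries of PFKM lay between 77.7 and 84.8 CPM with no separation, and the log2 fold at day 15 was 0.00 (SE 0.04). The lines' day 15 responses differed by -0.18 (SE 0.05, adjusted p = 0.043), which held in 4 of 12 omissions (MDA-MB-231 control replicate 1 or day 15 replicate 3, T47D control replicate 1 or day 15 replicate 2), with adjusted p up to 0.10 in the others. PFKM overlaps the annotated gene SENP1.

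The other phosphofructokinase genes were not called. PFKL, the liver type, had 91.6, 93.0 and 99.0 CPM in T47D controls and 85.6, 106 and 79.4 at day 15, where replicate 2 was the highest library and replicates 1 and 3 the lowest. PFKP, the platelet type, had 87.4, 88.4 and 87.0 CPM in controls and 90.8, 96.3 and 88.3 at day 15 in T47D (log2 0.07, SE 0.04, not called). PFKFB3 had 559.6, 569 and 579.5 CPM in T47D controls, 539, 521 and 521 at day 3, and 533, 593 and 524 at day 15. Its day 3 libraries lay below the controls, but the log2 fold of -0.11 (SE 0.04) was not called. PFKFB4, its hypoxia-inducible relative, ranged from 12.2 to 15.2 CPM in T47D and from 19.3 to 22.4 CPM in MDA-MB-231, with no call.

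SLC2A1, the main glucose transporter of proliferating cells, had 499 to 544 CPM over the 9 MDA-MB-231 libraries and 31.0 to 37.6 over those of T47D, with no call in any comparison. HK1, the housekeeping hexokinase, ranged from 306 to 324 CPM in MDA-MB-231 and from 463 to 504 in T47D, also without a call. HK2 had 99.3, 98.3 and 99.7 CPM in MDA-MB-231 controls and 107, 105 and 106 at day 3. The day 3 libraries lay above the controls, and the log2 fold of 0.10 (SE 0.03) missed the threshold (limma adjusted p = 0.074). In T47D, HK2 had 9.63, 10.7 and 9.97 CPM in controls and 9.25, 8.87 and 9.49 at day 3. The within-library log2 ratio of HK2 to HK1 was 0.14 higher at day 3 than in control in MDA-MB-231 and 0.14 lower in T47D, each without overlap (exact permutation p = 0.1 for either, the smallest possible, and 0.25 after adjustment over 40 such comparisons).

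**Figure D3:**
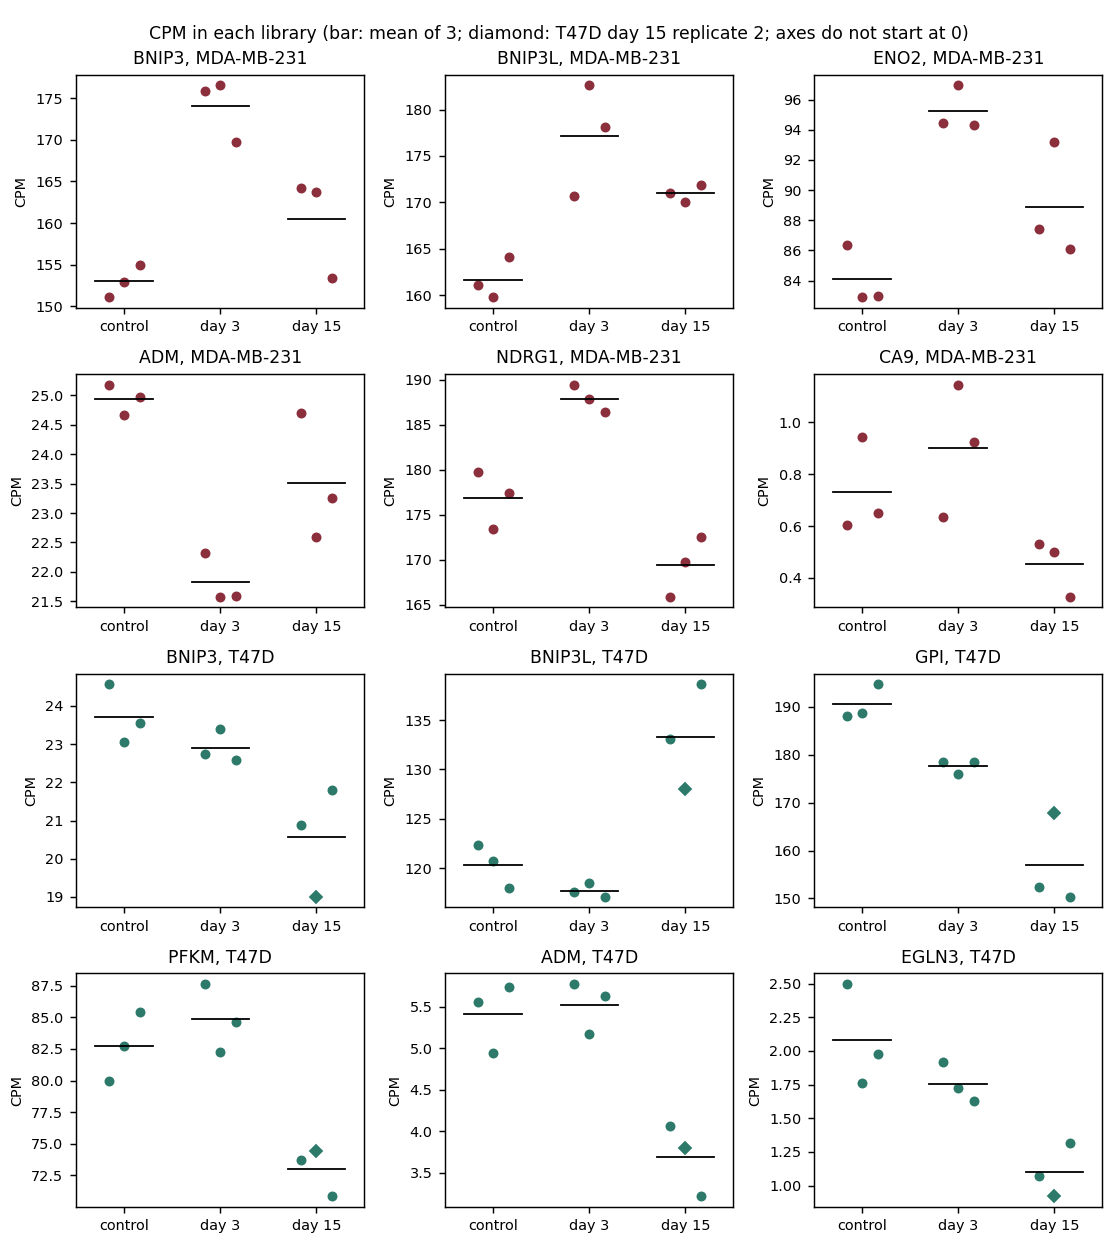
CPM in each library (vertical, linear axes that do not start at 0) for 12 pairs of gene and line whose groups separate, with a bar at the mean of 3 libraries and a diamond for T47D day 15 replicate 2. BNIP3 and ENO2 peak at day 3 in MDA-MB-231, while GPI, PFKM, ADM and EGLN3 are lowest at day 15 in T47D.

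In lower glycolysis, ENO2 was the 1 call of 9 in MDA-MB-231 at day 3, and PGK1 the 1 call of 9 in T47D at day 15. ENO2, on chromosome 12 (6913745 to 6923698, plus strand), had 86.4, 82.9 and 83.0 CPM in MDA-MB-231 controls, 94.5, 97.0 and 94.3 at day 3, and 87.4, 93.2 and 86.1 at day 15. All day 3 libraries lay above all others of the line. The day 3 rise was 1.13-fold (log2 0.18, SE 0.03, limma adjusted p = 0.0017). ENO1, the major enolase, ranged only from 3052 to 3213 CPM in the same line. The log2 ratio of ENO2 to ENO1 was thus 0.19 higher at day 3 and 0.10 higher at day 15 than in control, both without overlap (exact permutation p = 0.1 for either, adjusted 0.25). In T47D, ENO2 had 4.52 to 6.17 CPM, with all groups overlapping control.

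PGK1, phosphoglycerate kinase on the X chromosome, had 327, 325 and 324 CPM in T47D controls, 314, 314 and 304 at day 3, and 284, 316 and 287 at day 15. Every induced library lay below every control, but day 15 replicate 2 lay above the day 3 libraries. The day 15 log2 fold was -0.14 (SE 0.04, limma adjusted p = 0.028), and the call was lost in 5 of 6 omissions (adjusted p 0.056 to 0.14), the exception being that of day 15 replicate 2 (2.3e-06). In MDA-MB-231 the levels were 841, 832 and 801 in controls, 868, 877 and 849.9 at day 3, and 808, 853 and 782 at day 15. Day 3 lay above control and day 15 spread across both, so the fall from day 3 to day 15 of -0.09 (SE 0.03, adjusted p = 0.048) came from overlapping groups. It was lost in every omission but that of day 15 replicate 2, with adjusted p up to 0.21.

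GAPDH, the glycolytic enzyme often used as a reference gene, had 966, 1006 and 1054 CPM in T47D controls, 974, 973 and 975 at day 3, and 932, 976 and 878 at day 15. In MDA-MB-231 it had 2984, 2913 and 2763 in controls and 2991, 3061 and 2916 at day 15. Neither line had a call: the day 15 log2 fold was -0.12 in T47D (SE 0.04, limma adjusted p = 0.066) and 0.05 in MDA-MB-231 (SE 0.02, adjusted p = 0.19). Their difference of -0.17 was called (SE 0.05, adjusted p = 0.036), and held in the same 4 of 12 omissions as that of PFKM, with adjusted p up to 0.094 in the others. ENO1 in T47D had 1598, 1645 and 1662 CPM in controls and 1516, 1594 and 1467 at day 15, all below control (log2 -0.10, SE 0.03, adjusted p = 0.054). PKM, TPI1, PGAM1, ALDOA and ALDOC had no call in either line. ALDOC in MDA-MB-231 had 3.89, 3.66 and 3.00 CPM in controls and 4.45, 4.45 and 4.79 at day 3, without overlap (log2 0.38, SE 0.11, adjusted p = 0.076).

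At the branch between lactate and mitochondria, LDHB in MDA-MB-231 had 664, 655 and 659 CPM in controls, 667, 670.2 and 662 at day 3, and 688, 708 and 688 at day 15. The day 15 libraries were the highest, by a log2 fold of 0.08 (SE 0.02, limma adjusted p = 0.021), a call lost without control replicate 2 (0.12) or day 15 replicate 2 (0.052). LDHA, the subunit that HIF induces, had 2509, 2517 and 2573 CPM in MDA-MB-231 controls and 2616, 2586 and 2717 at day 15 (log2 0.06, SE 0.02, adjusted p = 0.054). In T47D, LDHA had 696, 707 and 689 CPM in controls, 642, 655 and 651 at day 3, and 706, 658 and 719.8 at day 15. Its day 3 libraries lay below all controls without a call, and at day 15 replicate 2 alone stayed near the day 3 level. PDK1, the kinase that shuts pyruvate dehydrogenase, had 23.2, 23.6 and 24.5 CPM in MDA-MB-231 controls and 26.1, 26.4 and 25.0 at day 3, all higher, and 21.6, 19.2 and 19.1 in T47D controls and 17.0, 18.2 and 17.9 at day 3, all lower. Neither was called, and the difference between the lines of -0.30 (SE 0.08) just missed the threshold (adjusted p = 0.052).

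Of the oxygen sensing feedback genes, EGLN3 fell in T47D. EGLN3, on chromosome 14 (33924231 to 34462774, minus strand), had 2.497, 1.76 and 1.98 CPM in T47D controls, 1.92, 1.72 and 1.63 at day 3, and 1.07, 0.922 and 1.32 at day 15. The day 15 libraries lay below all others, at 42 to 63 reads each against 79 to 111 in controls. The log2 fold was -0.87 (SE 0.17, limma adjusted p = 0.0038), a level 0.545 times control, and it held in all 6 omissions. From day 3 the fall was -0.65 (SE 0.17, adjusted p = 0.038), lost without day 15 replicate 1 (0.12) or day 3 replicate 1 (0.17), 2 (0.12) or 3 (0.085). In MDA-MB-231, EGLN3 had 7.82, 7.43 and 7.23 CPM in controls, 6.04, 6.83 and 6.87 at day 3, and 6.84, 7.45 and 6.35 at day 15. Its day 3 libraries lay below all controls, but no comparison was called there. The lines' day 15 responses of EGLN3 differed by -0.75 (SE 0.19, adjusted p = 0.013), which held in all 12 omissions.

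EGLN1, the main HIF hydroxylase, did not follow EGLN3. In T47D its 9 libraries lay between 72.9 and 77.3 CPM, and the log2 ratio of EGLN3 to EGLN1 was 0.85 lower at day 15 than in control, without overlap (exact permutation p = 0.1, adjusted 0.25). In MDA-MB-231, EGLN1 had 105, 104 and 105 CPM in controls and 111, 109 and 112 at day 3, higher in each library but not called. KDM3A, a histone demethylase induced by HIF, had 48.2, 48.0 and 49.6 CPM in MDA-MB-231 controls and 52.4, 52.6 and 52.9 at day 3, again higher in each library (log2 0.11, SE 0.04) and not called (limma adjusted p = 0.12). In T47D, KDM3A had 26.9, 26.7 and 26.9 CPM in controls and 28.5, 27.5 and 31.2 at day 15, above control (log2 0.12, SE 0.06, not called).

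Among the other hypoxia targets, ADM fell in both lines at different times. ADM, on chromosome 11 (10304680 to 10307397, plus strand), had 5.56, 4.95 and 5.74 CPM in T47D controls, 5.77, 5.17 and 5.63 at day 3, and 4.06, 3.80 and 3.22 at day 15. Control and day 3 overlapped, and the day 15 libraries, with 154 to 186 reads each, lay below both. The log2 fold at day 15 was -0.55 against control (SE 0.11, limma adjusted p = 0.0036) and -0.58 against day 3 (SE 0.11, adjusted p = 0.0042), each held in all 6 omissions. In MDA-MB-231, ADM had 25.2, 24.7 and 25.0 CPM in controls, 22.3, 21.6 and 21.6 at day 3, and 24.7, 22.6 and 23.3 at day 15. The day 3 libraries were the lowest, by -0.19 (SE 0.05, adjusted p = 0.035), the call lost in every omission noted above. Day 15 lay above day 3 and overlapped with control. The lines' day 15 responses of ADM differed by -0.46 (SE 0.11, adjusted p = 0.0099), which held in all 12 omissions.

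VEGFA had 145, 142 and 142 CPM in MDA-MB-231 controls, 156, 153 and 156 at day 3, and 156, 143 and 156 at day 15. The day 3 libraries lay above the controls (log2 0.12, SE 0.03, limma adjusted p = 0.037), and at day 15 replicate 2 was back at the control level. T47D had 26.0 to 30.03 CPM and no call. P4HA1, which hydroxylates collagen, had 133, 134 and 137 CPM in MDA-MB-231 controls, 144, 144 and 145 at day 3, and 138, 139 and 139 at day 15. Day 3 was highest (log2 0.10, SE 0.03, adjusted p = 0.043). In T47D, P4HA1 ranged from 69.8 to 77.6 CPM with no call.

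NDRG1 had 179.7, 173 and 177 CPM in MDA-MB-231 controls, 189, 188 and 186 at day 3, and 166, 169.8 and 173 at day 15. All day 3 libraries lay above all others, and day 15 below control. Only the fall from day 3 to day 15 was called (log2 -0.15, SE 0.03, limma adjusted p = 0.0012, kept in all 6 omissions). Against control, day 3 (log2 0.09, SE 0.03, adjusted p = 0.083) and day 15 (log2 -0.06, SE 0.03, adjusted p = 0.13) missed the threshold. P4HA2, the second collagen hydroxylase, had 65.3, 63.1 and 63.5 CPM at day 3 and 57.3, 60.5 and 58.7 at day 15 in MDA-MB-231, without overlap (log2 -0.12, SE 0.04, adjusted p = 0.043, lost in every omission but that of day 15 replicate 2, up to 0.20). CA9 was near the detection limit, with 26, 54 and 40 reads at day 3 and 22, 21 and 12 at day 15 in MDA-MB-231. Its fall of -0.89 (SE 0.26, adjusted p = 0.041) came without overlap, but was lost in the same 5 omissions, up to 0.23. ANKRD37, a small HIF target, had 3.58 to 4.47 CPM in MDA-MB-231 and 0.524 to 0.988 CPM in T47D, with no call.

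T47D day 15 replicate 2 bears on the glycolytic genes. In that library, 7 of 9 genes of glucose entry and upper glycolysis and 6 of 9 of lower glycolysis were the highest of the 3 day 15 libraries, beside 40.4% of all listed genes. Their median log2 difference from the mean of replicates 1 and 3 was 0.15 and 0.10, beside 0.00 over all genes. Both mitophagy genes, 2 of 3 feedback genes and 2 of 3 pyruvate and lactate genes were lowest there, beside 40.9% of all listed genes. Without that library, 11 members were called lower than control (13.7% of all genes) and 2 higher (11.3% of all genes). PFKL, PFKFB3, TPI1, GAPDH and ENO1 joined the 6 members already called lower, and KDM3A joined BNIP3L. GPI then stood at -0.33 (SE 0.03, limma adjusted p = 3.03e-10), ENO1 at -0.13 (SE 0.02, adjusted p = 2.0e-05) and GAPDH at -0.16 (SE 0.03, adjusted p = 6.4e-05) on the log2 scale. Against day 3, 8 members were called lower without it (9.89% of all genes) and 4 higher (7.74% of all genes), the latter being KDM3A, PDK1, BNIP3L and LDHA.

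**Figure D4:**
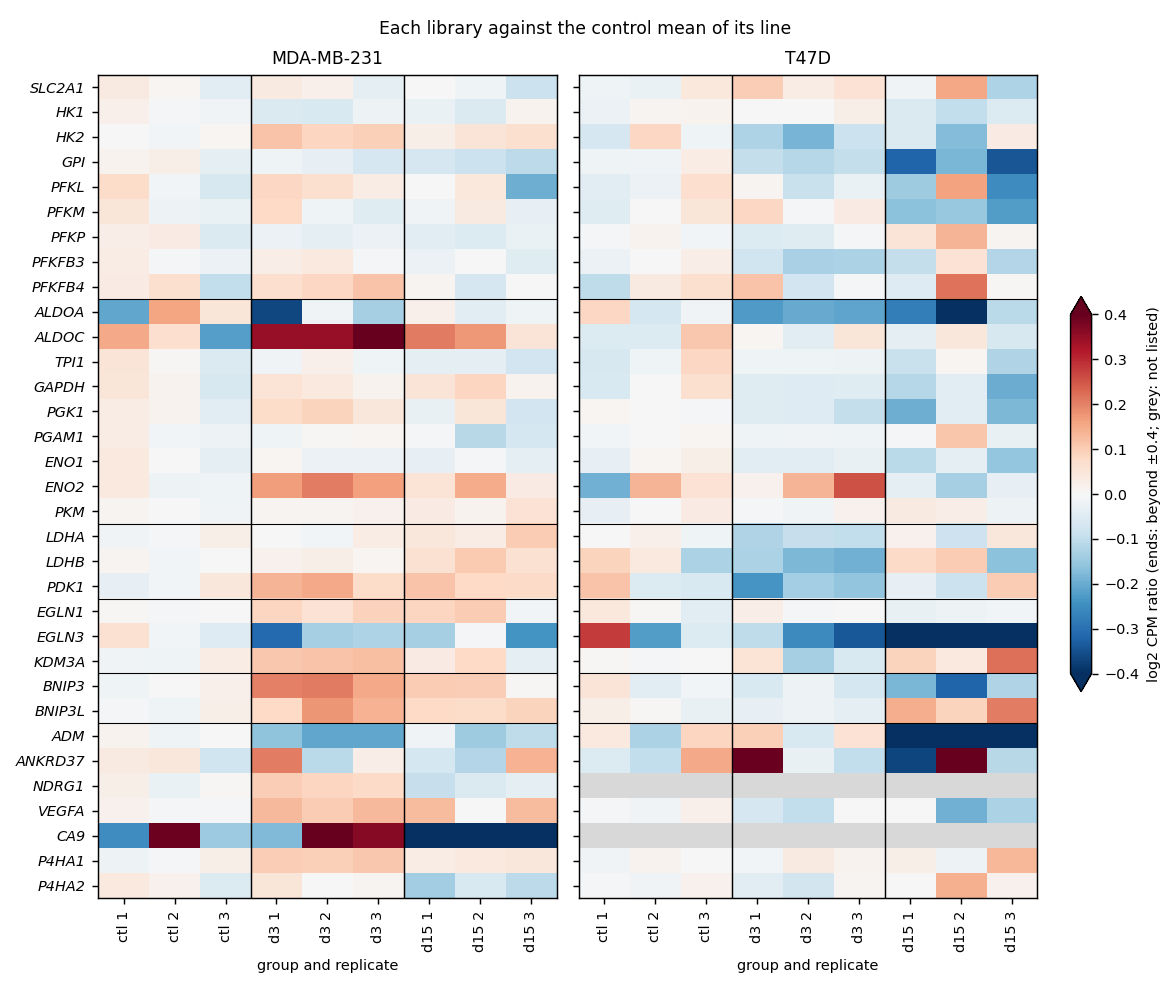
Log2 CPM ratio of each library to the control mean of its line (colour, limits at ±0.4, grey where the gene was not listed), with members in rows by role and libraries in columns by group and replicate. In T47D the column of day 15 replicate 2 shows most upper glycolytic genes higher than in replicates 1 and 3, while EGLN3, ADM and BNIP3 are low in all 3.

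Among the regulators of HIF, EPAS1 and CITED2 fell in T47D. Of the 12 listed HIF subunits and oxygen sensing genes there, 2 fell and 10 were not called at day 3 (0.718% of all genes were called lower), and at day 15 2 fell and 1 rose (6.23% and 5.0% of all genes). EPAS1 (HIF2 alpha) had 187, 186 and 189 CPM in T47D controls, 154, 159.9 and 155 at day 3, and 151, 148 and 149.7 at day 15. CITED2, which competes with HIF for its coactivator EP300, had 263, 257 and 257 CPM in controls, 231, 227 and 228 at day 3, and 187, 192 and 186 at day 15. Neither gene's induced libraries overlapped with control. The log2 fold at day 15 was -0.32 for EPAS1 (SE 0.03, limma adjusted p = 6.8e-06) and -0.46 for CITED2 (SE 0.03, adjusted p = 1.0e-07), and both held in all omissions. HIF1A had 177 to 200.4 CPM in T47D and 918 to 990.4 CPM in MDA-MB-231, with no call. In MDA-MB-231, 0 of 13 were called at day 3 (0.895% of all genes higher and 0.874% lower). At day 15 the 1 call there was ARNT2, at -0.21 (SE 0.04, adjusted p = 0.0005), where 4.77% of all genes were called lower and 3.42% higher. EP300 was the riser in T47D at day 15 (log2 0.11, SE 0.03, adjusted p = 0.044), but kept its call in 1 of 6 omissions of a library (up to 0.15). The median log2 fold of the list lay between -0.01 and 0.00 in these comparisons, as printed to 2 decimals.

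Of the other HIF targets, chosen outside the 33, 3 of 41 rose and 1 fell in MDA-MB-231 at day 3 (0.895% and 0.874% of all genes), with a median log2 fold of 0.06 beside 0.00 over all genes. CCNG2, a cyclin, rose by 0.18 (SE 0.04, limma adjusted p = 0.0096) and GBE1, the glycogen branching enzyme, by 0.14 (SE 0.03, adjusted p = 0.0038). CCNG2 kept its call in 2 of 6 omissions (up to 0.079) and GBE1 in 4 (up to 0.070). At day 15, 3 rose and 4 fell there (3.42% and 4.77% of all genes), with a median of 0.01. In T47D, 0 of 37 rose and 1 fell at day 3 (1.16% and 0.718% of all genes, list median -0.03). At day 15, 1 rose and 7 fell (5.0% and 6.23% of all genes), with a median of -0.08 beside 0.00 over all genes. STC2, a secreted glycoprotein, had 2232, 2283 and 2334 CPM in T47D controls and 1812, 1865 and 1796 at day 15 (log2 -0.32, SE 0.03, adjusted p = 1.6e-06). MET, a growth factor receptor, went from 0.802 to 1.10 CPM in controls to 0.230 to 0.417 CPM at day 15 (log2 -1.40, SE 0.24, adjusted p = 0.0014), and DDIT4, an inhibitor of mTOR, fell by 0.40 (SE 0.08, adjusted p = 0.0033). CXCR4, the chemokine receptor, fell by 0.73 in T47D (SE 0.14, adjusted p = 0.0040) and by 0.38 in MDA-MB-231 (SE 0.09, adjusted p = 0.0057) at day 15, where the MDA-MB-231 call held in 5 of 6 omissions (up to 0.080).

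Of the 17 listed genes of pyruvate and lactate fate, 3 fell, 0 rose and 14 were not called in T47D at day 15 (6.23% of all genes were called lower), with a median log2 fold of -0.07 beside 0.00 over all genes. MPC1, a subunit of the mitochondrial pyruvate carrier, had 39.7, 38.3 and 38.5 CPM in controls, 35.6, 34.9 and 35.0 at day 3, and 32.2, 31.9 and 33.3 at day 15. These were 3 separate levels, with a log2 fold at day 15 of -0.26 (SE 0.04, limma adjusted p = 0.0011). PDHB and PDHA1, subunits of pyruvate dehydrogenase, fell by 0.18 (SE 0.04, adjusted p = 0.0041) and by 0.12 on the log2 scale (SE 0.04, with 0.048 as its adjusted p). PDHA1 kept its call in 3 of 6 omissions (up to 0.17). In MDA-MB-231, 2 of 18 fell at day 15 (4.77% of all genes were called lower), PC, pyruvate carboxylase, by 0.25 (SE 0.04, adjusted p = 0.0004) and BSG by 0.09 (SE 0.03, adjusted p = 0.041), the latter call kept in 2 of 6 omissions (up to 0.24). At day 3, 0 genes of this list were called in either line. Over all genes, 0.895% were then called higher and 0.874% lower in MDA-MB-231, and 1.16% and 0.718% in T47D.

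Of the other glycolytic isoforms and transporters, 0 were called at day 3 in either line, 1 of 12 rose and 1 fell at day 15 in MDA-MB-231 (3.42% and 4.77% of all genes), and 2 of 11 fell in T47D (6.23% of all genes). PFKFB2, a relative of PFKFB3, fell by 0.22 in T47D (SE 0.03, limma adjusted p = 0.0007). In the pentose phosphate pathway and glucose storage list, 3 of 17 fell in T47D at day 15 (6.23% of all genes were called lower). These were PGM1, lower by 0.19 (SE 0.05), PGM2 by 0.16 (SE 0.04) and TKT by 0.14 (SE 0.04). The list median was -0.08 beside 0.00 over all genes. PGM1 and PGM2 each kept that call in 4 of 6 omissions (up to 0.071 and 0.075) and TKT in 1 (up to 0.11). In MDA-MB-231, PGM2 rose by 0.12 (SE 0.03) and PYGB fell by 0.14 (SE 0.03) at day 15 (3.42% and 4.77% of all genes). Among 12 glucose-sensing regulators, TXNIP, which limits glucose uptake, rose in MDA-MB-231 by 0.14 at day 3 (SE 0.03, adjusted p = 0.018) and 0.15 at day 15 (SE 0.03, adjusted p = 0.0043). It was the only regulator called there at either time (0.895% of all genes were called higher at day 3 and 3.42% at day 15). In T47D, 0 of 12 were called (1.16% of all genes higher and 0.718% lower at day 3, 5.0% and 6.23% at day 15). The day 3 call of TXNIP held in 1 of 6 omissions (up to 0.12) and the day 15 call in all 6. Of 13 reference housekeeping genes, ACTB fell at day 15 by 0.08 in MDA-MB-231 (SE 0.02) and 0.09 in T47D (SE 0.03), and SDHA by 0.19 in T47D (SE 0.03, adjusted p = 0.0014). The T47D call of ACTB held in 2 of 6 omissions (up to 0.16). In the reference list as a whole, 1 rose and 1 fell in MDA-MB-231 at day 15 (3.42% and 4.77% of all genes). In T47D 1 rose and 2 fell (5.0% and 6.23% of all genes).

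Some marker lists also differed between groups without overlap in their summed level. In T47D, fibroblast markers, 2 of 7 listed, had 34.5 to 40.1 CPM in controls and 24.7 to 27.3 CPM at day 15, and the 1 listed of 9 MDA-MB-231 identity markers had 10.1 to 11.8 and 6.63 to 8.11 CPM. Replication-dependent histones, 8 of 9 listed, had 290.2 to 299 CPM in T47D controls and were higher at both times, with 325 to 330.5 CPM (day 3) and 325 to 327 CPM (day 15). Erythroid and endothelial markers were not listed in T47D, and leukocyte markers summed to at most 2.04 CPM. In MDA-MB-231, fibroblast markers, 4 of 7 listed, went from 15.6 to 16.7 CPM in controls to 13.6 to 14.1 CPM at day 15, T47D identity markers from 976 to 1038 to 887 to 917 CPM, and MDA-MB-231 identity markers from 7656 to 7708 to 7933 to 8054 CPM. Endothelial markers, 2 of 5 listed there, had 9.62 to 10.3 CPM in controls and 9.16 to 9.21 CPM at day 15. Leukocyte markers, at 72.2 to 79.4 CPM over the line, and histones, at 86.9 to 98.8 CPM, overlapped between control and day 15. The part of these markers in the results was not tested.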

How the data were processed

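Expression was measured by RNA-seq in 18 libraries. The deposited tables, 1 per cell line, hold log2 CPM per gene, as their values show. The tools STAR, featureCounts and limma and the build GRCh38.p13 are named, without tool versions, per the submitters' processing notes. Not given in the sources used here are the authors' scaling, low-count filter and strand setting. After subtracting a depth-scaled pseudocount of 3 reads, 100% of values were whole reads (tolerance 0.1), which gave CPM and reads per library. Depth was 37.0 to 52.4 M reads. Log2 folds are on the log2(CPM + pseudocount) scale and understate changes of genes with few reads.

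limma 3.58.1 (R 4.3.3, statmod 1.5.0) was fitted to the 9 deposited libraries of each line, by group means, with trend and robust moderation; p-values were Benjamini-Hochberg adjusted over all listed genes and called under 0.05. Differences between lines used the same fit over all 18 libraries and the 12666 shared genes. That fit pools the spread of a gene over both lines, so the SE of a difference can lie below that of T47D alone. For LDHB at day 15 the SE was 0.08 for the difference and 0.11 in T47D against control. The procedure was tested on simulated reads built from MDA-MB-231 control levels, with a fixed spread and no outlying library. That test therefore does not cover the T47D library that stood apart. The 10 isozyme ratios were compared by exact two-sided permutation. Alternatives were a fit of 2 groups, a replicate block, log2(CPM + 1), a filter at mean log2 CPM 1, median centring, limma-voom on recovered reads, no trend or robust moderation, and omission of each library. The rule for named genes was all 33 members by role, with values per library for those called, and from each of 7 further lists at most 4 called genes per comparison, by absolute log2 fold; some of those are given as counts alone, and 1 is not reported here. Members and lists were chosen with earlier results of these data known. Locations are from GENCODE 29 (GRCh38) and promoter windows from RefSeq (GRCh38.p14). Sample groups came from the sample titles.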

Additional observations from a re-analysis of the deposited data

Results flagged for a closer look

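For 8 responses the difference between the lines was itself called by limma, over the genes of both tables and 18 libraries, as T47D minus MDA-MB-231 on the log2 scale. At day 3 these were BNIP3L at -0.16 and BNIP3 at -0.24. At day 15 they were BNIP3 at -0.28, ADM at -0.46, GAPDH at -0.17, PFKM at -0.18, EGLN3 at -0.75 and GPI at -0.20. BNIP3 rose in MDA-MB-231 at day 3 and fell in T47D at day 15, so its values went opposite ways at different times. The differences of BNIP3, ADM, EGLN3 and GPI at day 15 held in every omission of a library and every other setting tried, and the other 4 did not. Groups of 3 libraries were not tested for an outlying sample in a single gene.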

How the results depend on the processing

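Of the 25 calls of members within a line, 10 held in every omission of a library and 7 in both the omissions and every other setting: in T47D at day 15 ADM, PFKM, EGLN3 and GPI against control, and BNIP3L, ADM and PFKM against day 3. The sign of a call reversed in 0 cases. The replicate block, the fit of 2 groups and the fit without moderation leave the log2 fold unchanged, so they could not reverse it. In the same order of higher and lower, leaving out 1 library gave 2 to 4 and 0 to 0 calls for MDA-MB-231 at day 3, 0 to 3 and 0 to 3 at day 15, 0 to 1 and 1 to 8 for day 15 against day 3, 0 to 2 and 4 to 11 for T47D at day 15, and 1 to 4 and 2 to 8 for day 15 against day 3. For differences between lines the omissions gave 0 and 0 to 2 at day 3, and 0 to 1 and 4 to 8 at day 15. Over all genes the omissions moved the calls too. In MDA-MB-231 they gave 53 to 132 and 65 to 127 at day 3, 166 to 855 and 291 to 1042 at day 15, and 35 to 819 and 89 to 845 for day 15 against day 3. T47D had 419 to 1676 and 511 to 2029 at day 15, and 144 to 1143 and 259 to 1461 for day 15 against day 3. Differences between lines had 146 to 181 and 78 to 133 at day 3, and 377 to 885 and 483 to 1014 at day 15. A fit of the 2 groups alone called 9 members higher in MDA-MB-231 at day 3, 0 and 0 at day 15, 3 lower for day 15 against day 3, and in T47D 4 lower at day 3, 0 higher at day 15 and 2 lower for day 15 against day 3. Over all genes that fit moved the MDA-MB-231 calls from 128 to 229 higher at day 3, from 490 and 683 to 299 and 477 at day 15, and from 409 to 375 lower for day 15 against day 3. In T47D it moved them from 106 to 532 lower at day 3, from 739 to 448 higher at day 15 and from 494 to 297 lower for day 15 against day 3. Median centring called 3 higher in MDA-MB-231 at day 3, 3 and 0 at day 15, 1 and 2 for day 15 against day 3, 0 higher in T47D at day 15 and 0 lower for the day 3 difference between lines. Over all genes it moved the calls from 128 to 90 higher in MDA-MB-231 at day 3, and the day 15 splits of that line are given above. Higher calls in T47D at day 15 went from 739 to 581, and lower ones for the day 3 difference between lines from 133 to 123. With neither trend nor robust moderation, 0 members were called in MDA-MB-231 in any comparison, 0 higher in T47D at day 15, 2 lower for day 15 against day 3, and 0 for the day 3 difference between lines. Over all genes that setting called 31 higher and 32 lower in MDA-MB-231 at day 3, 76 and 156 at day 15, and 6 and 26 for day 15 against day 3. It called 580 higher in T47D at day 15 and 327 lower for day 15 against day 3. For the day 3 difference between lines it called 163 higher and 102 lower. The causes of these shifts were not tested.

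Replicate numbers were not treated as pairs, since the correlation of same-numbered deviations was not above 0.1 in every pair of any comparison. In MDA-MB-231 it was 0.01 to 0.16 for control and day 3, 0.05 to 0.28 for control and day 15, and -0.03 to 0.19 for day 3 and day 15. In T47D it was -0.41 to 0.07 for control and day 15. Replicate 3 of MDA-MB-231 correlated best with its own number in every comparison (0.16, 0.28 and 0.19). This rule cannot show that the libraries are unpaired. With the replicate block, 9 members were called higher in MDA-MB-231 at day 3, 5 higher and 2 lower at day 15, 2 higher for day 15 against day 3, and 0 lower for the day 3 difference between lines. Over all genes the block moved the MDA-MB-231 calls from 128 to 321 higher at day 3, from 490 and 683 to 1038 and 1235 at day 15, and from 354 to 885 higher for day 15 against day 3. Lower calls for the day 3 difference between lines went from 133 to 87. Between 0 and 2 of 3 libraries in a comparison correlated best with their own number, and the pairing was therefore not used. Every group holds the same replicate numbers, so the replicate block leaves each log2 fold unchanged and could not reverse a sign.

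Counting error limits CA9, ANKRD37 and EGLN3 in particular, and 3 libraries per group limit every p-value.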
